A study of Mus musculus with 16 samples.

Results

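Myc, the Krüppel-like factor genes Klf6 and Klf4, and 7 further immediate early genes (Egr1, Ier2, Ier3, Dusp1, Zfp36, Btg2 and Gadd45b) were followed across 4 genotypes of mouse liver. The 10 genes were chosen by name, with earlier results of these data known. For each, the array probe set that carried that gene's symbol and no other was used. Each of the 10 had exactly 1 such probe set, out of 18820 genes measured in this way. Whole livers came from male mice killed at 7 days of age, on a mixed C57/BL6 and SV129Ola background, with 4 animals and 4 arrays per genotype and 16 arrays in all. The WT group held Cre-negative littermates that carried the loxP-flanked alleles. In the TRAF2/Casp-8 LPC-KO group, called the double knockout here, an alfp-Cre transgene removed caspase-8 as well as Traf2 from the parenchyma, meaning hepatocytes and cholangiocytes. The RIPK3 triple knockout carried the same conditional deletions and in addition lacked Ripk3 constitutively, in every cell of the animal. The IKKβ triple knockout carried the same conditional deletions with Ikkβ, the kinase gene Ikbkb, deleted in the parenchyma as well. Blood, stromal and endothelial cells of these livers kept intact loxP-flanked genes, and in such bulk tissue fewer cells of a type and less RNA per cell cannot be told apart.

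Immediate early genes are switched on by growth factors, cytokines and stress through transcription factors already present in the cell, so no new protein is needed for their induction. Many encode transcription factors, such as Myc, which drives ribosome production and cell growth, and Egr1, a zinc finger factor downstream of the MAP kinases. Others encode short-lived brakes on the same signals, such as the MAP kinase phosphatase DUSP1 and the mRNA-destabilising protein tristetraprolin, the product of Zfp36. In liver these genes are known from the first hours after partial hepatectomy and injury.

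The bases directly upstream of the transcription start are shown for 6 of the genes because they carry the recognition letters through which such induction is commonly described. RefSeq promoter windows, build GRCm38.p6, matched 7 of the 10 genes, and Myc, Egr1 and Ier2 are named only. Klf4, the other matched gene, carries such letters too and was searched, but its bases are not shown. Letters were searched on both strands in the 250 bases before each start and compared with 32841 windows of the same length. Each line below runs 5′ to 3′ on the gene's own strand over the 190 bases before the start. The capitals mark the motifs named in that line. GC boxes, which were searched as well, are left in lower case except where they overlap a marked motif.
Dusp1, chr17:26508473-26508662, minus strand, with a cyclic AMP response element followed by an E-box in capitals: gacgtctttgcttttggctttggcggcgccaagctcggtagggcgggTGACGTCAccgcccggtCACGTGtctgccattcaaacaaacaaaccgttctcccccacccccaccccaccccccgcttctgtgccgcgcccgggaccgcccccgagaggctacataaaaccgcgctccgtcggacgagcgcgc
Btg2, chr1:134079156-134079345, minus strand, with a cyclic AMP response element in capitals: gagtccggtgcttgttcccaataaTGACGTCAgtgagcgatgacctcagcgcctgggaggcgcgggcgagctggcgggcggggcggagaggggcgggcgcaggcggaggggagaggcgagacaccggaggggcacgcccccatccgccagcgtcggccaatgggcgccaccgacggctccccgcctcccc
Klf6, chr13:5861299-5861488, plus strand, with an E-box in capitals: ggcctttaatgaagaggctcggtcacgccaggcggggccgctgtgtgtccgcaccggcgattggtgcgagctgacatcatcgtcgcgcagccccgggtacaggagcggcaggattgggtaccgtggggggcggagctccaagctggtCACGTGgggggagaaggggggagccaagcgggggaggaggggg
Gadd45b, chr10:80929901-80930090, plus strand, with an E-box and then a TATA box in capitals: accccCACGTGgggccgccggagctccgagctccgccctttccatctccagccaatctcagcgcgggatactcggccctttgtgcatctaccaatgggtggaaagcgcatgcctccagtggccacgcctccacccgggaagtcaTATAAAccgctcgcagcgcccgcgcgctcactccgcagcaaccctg
Zfp36, chr7:28379229-28379418, minus strand, with a serum response element (CArG box) in capitals: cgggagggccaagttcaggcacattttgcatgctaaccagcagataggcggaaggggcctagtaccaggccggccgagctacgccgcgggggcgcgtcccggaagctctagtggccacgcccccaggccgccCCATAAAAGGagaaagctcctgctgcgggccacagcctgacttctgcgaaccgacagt
Ier3, chr17:35821523-35821712, plus strand, with an NF-κB consensus match on the minus strand in capitals: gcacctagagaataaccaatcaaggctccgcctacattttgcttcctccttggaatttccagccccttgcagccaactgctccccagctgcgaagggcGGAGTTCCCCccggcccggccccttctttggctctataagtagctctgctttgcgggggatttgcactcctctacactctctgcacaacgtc

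The cyclic AMP response element, TGACGTCA, was found in Dusp1 and Btg2, which is 2 of 7 matched genes against 1.55% of all windows. Its core TGACG, which lies within the full element, was found in 3 of 7, with Klf4 as the additional gene, against 17.8% of windows. The E-box CACGTG, the sequence bound by Myc with Max, was found in Klf6, Klf4, Dusp1 and Gadd45b, 4 of 7 against 6.02% of windows. The serum response element was found in Zfp36, 1 of 7 against 1.47% of windows, and the NF-κB consensus in Ier3, 1 of 7 against 3.90%. In Ier3 that match overlapped a neighbouring GC box. The GC box GGGCGG was in all 7 matched windows and in 32.7% of all windows, the TATA box TATAAA in Gadd45b alone against 12.4%, and the AP-1 letters TGANTCA in 0 of 7 against 6.75%. The letters of the cyclic AMP response element, E-box and GC box each contain a CpG. The 7 matched windows held 54.4% to 74% G and C and 8 to 32 CpG dinucleotides. The 32841 windows were not matched to them for this. These matches describe letters only, and binding was not measured.

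Values were log2 signals after RMA, with array medians from 4.90 to 5.05. Arrays of the same genotype correlated with r between 0.981 and 0.991 over all probe sets. WT replicate 1 stood apart from the other 15 arrays on the second principal component and had the lowest estimated weight of all arrays, 0.461. Casp8 was lower than in WT in all 3 knockout genotypes (log2 differences of −0.91, −1.18 and −0.99), Ripk3 was lower by −1.62 in the RIPK3 triple than in the double knockout, and Ikbkb by −0.69 in the IKKβ triple than in the double knockout. The Traf2 probe set went against its label, with a mean of 6.28 in WT and 7.30, 7.32 and 6.89 in the double, RIPK3 triple and IKKβ triple knockouts, so every direction below is between arrays as labelled. Hepatocyte markers were at 12.45 to 12.74 as a mean over 9 genes on every array. Their means were lower than in WT for 9 of 9 genes in the double knockout (median −0.08). The same held for 6 of 9 in the RIPK3 triple (−0.05) and 9 of 9 in the IKKβ triple knockout (−0.04). In these comparisons 0 of 9 passed limma's adjusted threshold.

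**Figure D1:**
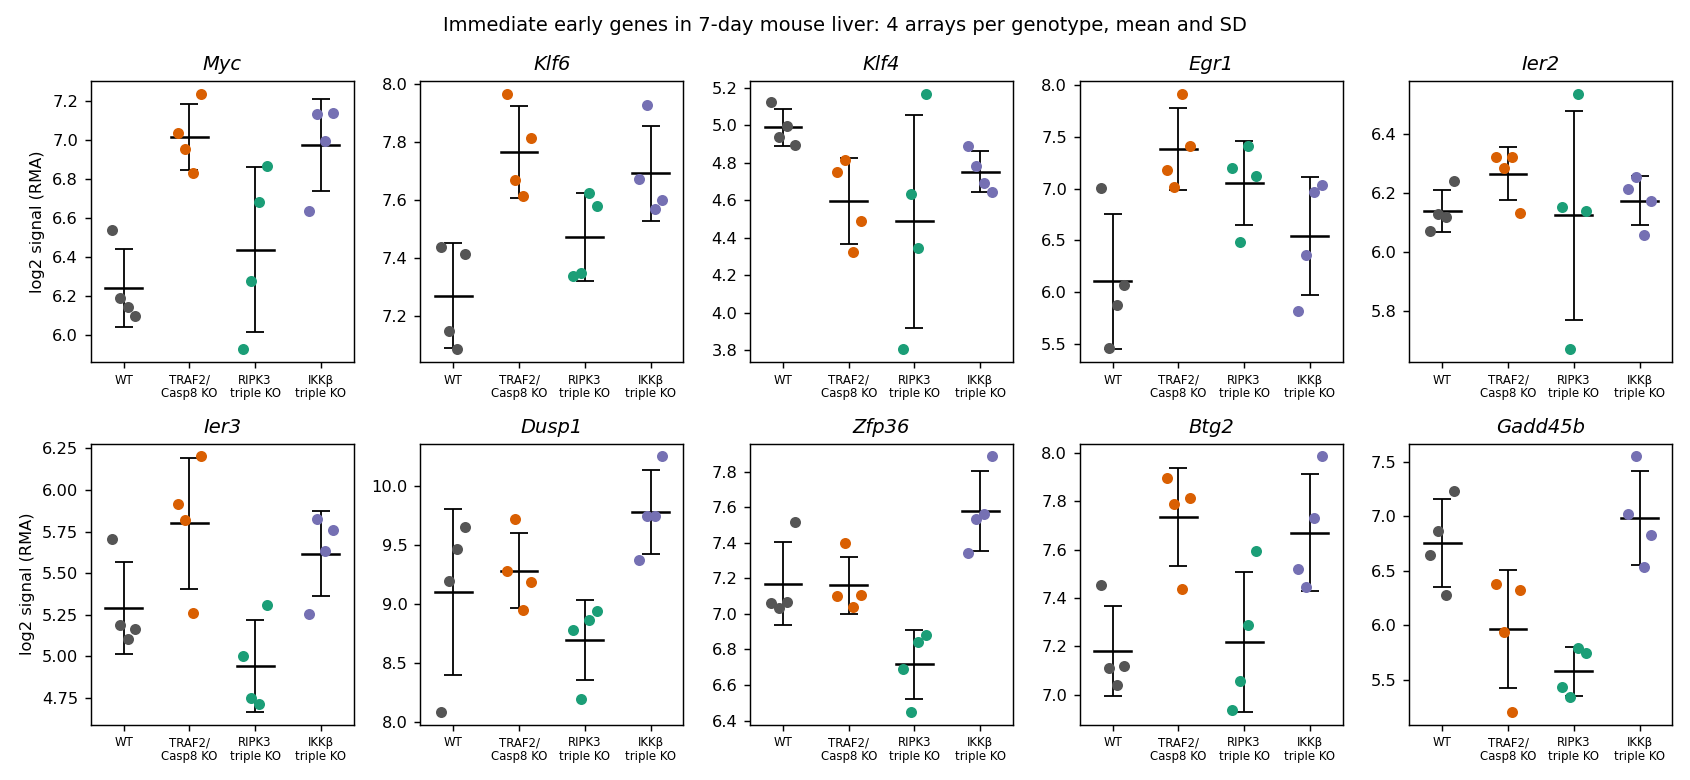
Log2 RMA signal of each of the 10 genes (y axis, 1 panel per gene with its own scale) in the 4 genotypes (x axis), with 1 point per array, a bar at the mean and whiskers of 1 SD (n = 4). Myc lies between 6.83 and 7.24 in the double knockout and between 6.10 and 6.54 in WT, and Zfp36 lies between 7.34 and 7.89 in the IKKβ triple and between 6.45 and 6.88 in the RIPK3 triple knockout.

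Among the transcription factor genes, Myc and Klf6 were higher in the double knockout than in WT. Myc signal was 6.54, 6.19, 6.14 and 6.10 in WT replicates 1 to 4, and 7.04, 6.96, 6.83 and 7.24 in those of the double knockout. The RIPK3 triple knockout gave 5.93, 6.27, 6.68 and 6.87 for Myc, and the IKKβ triple knockout gave 6.64, 7.14, 7.00 and 7.14. All 4 double knockout and all 4 IKKβ triple knockout arrays lay above all 4 WT arrays, while the RIPK3 triple knockout arrays spread from below the WT range into that of the double knockout. The group means were 6.24 ± 0.20 in WT, 7.02 ± 0.17 in the double, 6.44 ± 0.42 in the RIPK3 triple and 6.98 ± 0.24 in the IKKβ triple knockout (SD, n = 4 each).

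Klf6 encodes a zinc finger factor of the Krüppel-like family that is induced early in injured liver. Its signal was 7.44, 7.15, 7.09 and 7.41 in WT and 7.97, 7.67, 7.61 and 7.81 in the double knockout. It was 7.34, 7.35, 7.62 and 7.58 in the RIPK3 triple and 7.67, 7.93, 7.57 and 7.60 in the IKKβ triple knockout. The WT arrays lay below every double and IKKβ triple knockout array, and overlapped with the RIPK3 triple knockout arrays. Klf4, another Krüppel-like factor gene, known for its part in epithelial differentiation, was dim in all genotypes, between 3.81 and 5.17, around or below the array medians, and the deposited values carried no detection call. Its means were 4.99 ± 0.10 in WT, 4.60 ± 0.23 in the double, 4.49 ± 0.57 in the RIPK3 triple and 4.75 ± 0.11 in the IKKβ triple knockout.

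Egr1 had the widest spread within genotypes of the 10 genes. Its signal was 7.00, 5.46, 5.88 and 6.07 in WT, 7.18, 7.01, 7.92 and 7.42 in the double knockout, 7.19, 6.48, 7.42 and 7.12 in the RIPK3 triple and 5.81, 6.36, 6.97 and 7.03 in the IKKβ triple knockout. The double knockout arrays all lay above the WT arrays, but WT replicate 1, at 7.00, was close to the lowest double knockout array, at 7.01. The pooled SD within genotypes was 0.52 for Egr1, at percentile 98.8 of all genes. Ier2, which encodes a nuclear regulator of early transcription, was the flattest, with means of 6.14 ± 0.072, 6.26 ± 0.090, 6.12 ± 0.35 and 6.17 ± 0.084 in the WT, double, RIPK3 triple and IKKβ triple knockout groups.

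Among the genes for brakes and effectors, Gadd45b and Zfp36 were low in the RIPK3 triple knockout. Gadd45b encodes a stress sensor that binds MAP kinase kinases and is a known NF-κB target. Its signal was 6.64, 6.87, 6.28 and 7.23 in WT, 6.38, 5.94, 5.20 and 6.32 in the double knockout, 5.43, 5.34, 5.79 and 5.75 in the RIPK3 triple and 7.02, 7.55, 6.53 and 6.83 in the IKKβ triple knockout. Every IKKβ triple knockout array lay above every double and every RIPK3 triple knockout array, every WT array lay above every RIPK3 triple knockout array, and WT and the double knockout overlapped. The means were 6.75 ± 0.40, 5.96 ± 0.54, 5.58 ± 0.22 and 6.98 ± 0.43 in the same order of genotypes.

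Zfp36 signal was 7.06, 7.03, 7.07 and 7.52 in WT and 7.10, 7.40, 7.04 and 7.11 in the double knockout. It was 6.69, 6.45, 6.84 and 6.88 in the RIPK3 triple and 7.34, 7.54, 7.56 and 7.89 in the IKKβ triple knockout. The RIPK3 triple knockout arrays lay below all 12 other arrays. Dusp1 was at 8.09, 9.19, 9.46 and 9.65 in WT, 9.28, 9.71, 8.95 and 9.19 in the double knockout, 8.78, 8.19, 8.86 and 8.94 in the RIPK3 triple and 9.37, 9.74, 9.74 and 10.25 in the IKKβ triple knockout. For Dusp1 the RIPK3 triple knockout arrays lay below every array of the other knockouts, and WT replicate 1 was the lowest array of all 16.

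Ier3 encodes a short-lived stress-induced protein that influences cell survival, and Btg2 an antiproliferative cofactor that promotes mRNA deadenylation. Ier3 was at 5.70, 5.19, 5.10 and 5.17 in WT, 5.92, 5.82, 5.26 and 6.20 in the double knockout, 4.999, 4.75, 4.71 and 5.31 in the RIPK3 triple and 5.25, 5.82, 5.63 and 5.76 in the IKKβ triple knockout. Replicate 3 of the double knockout, at 5.26, fell within the ranges of the WT and RIPK3 triple knockout arrays. Btg2 was at 7.45, 7.11, 7.04 and 7.12 in WT, 7.90, 7.79, 7.44 and 7.81 in the double knockout, 6.94, 7.06, 7.29 and 7.59 in the RIPK3 triple and 7.52, 7.45, 7.73 and 7.98 in the IKKβ triple knockout. Only the WT array at 7.45 and the double knockout array at 7.44 kept those groups from lying apart.

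The joint conditional deletion of caspase-8 with Traf2 was addressed by the double knockout against WT. Myc rose 1.71-fold and Klf6 rose 1.41-fold, as log2 differences of 0.77 (SE 0.18, limma adjusted p = 0.0396) and 0.50 (SE 0.12, limma adjusted p = 0.0392). These were 2 of 10 genes, both upward, against 1.44% of all probe sets called higher and 2.25% called in either direction. Many probe sets carry no gene symbol. With 1 probe set per gene, 603 of 18820 genes were called higher and 390 lower, and Egr1 and Btg2 passed as well in that fit. Egr1 had the largest difference, 1.28 (SE 0.33, 95% interval 0.57 to 1.99), and did not pass in the fit over all probe sets (limma adjusted p = 0.0619). Btg2 was 0.55 higher (limma adjusted p = 0.0886), Ier3 0.51 higher (0.259) and Gadd45b lower by −0.79 (0.168). Klf4 differed by −0.39, Dusp1 by 0.18, Ier2 by 0.13 and Zfp36 by −0.01, with adjusted p between 0.433 and 0.989. The groups did not overlap for 3 genes upward, Myc, Klf6 and Egr1, and for Klf4 downward, where 11.6% of all genes were apart in either direction. The median difference was 0.34 for the 10 genes and −0.01 for all genes. The Myc call was lost without any one of WT replicates 2 to 4 or of the 4 double knockout arrays, with adjusted p up to 0.129, and the Klf6 call without WT replicates 2, 3 or 4 or double knockout replicates 1 or 4, up to 0.132. Without WT replicate 1, Egr1 passed as well (limma adjusted p = 0.0127), which made 3 calls. With only the 8 arrays of both groups in the model Myc passed and Klf6 did not (limma adjusted p = 0.0984), and neither passed a test against a minimum log2 fold of 0.5. With the replicate number as a block, Myc and Klf6 did not pass either. Cholangiocyte and progenitor markers were higher for 6 of 7 genes over the same contrast (median 0.79, 4 past the threshold). Krt19 was the lower one, with means of 5.64 in WT and 5.44 in the double knockout. The array means of the list were 4.61 to 4.85 in WT and 5.50 to 5.63 in the double knockout. Erythroid markers had lower means for 4 of 4 genes (median −0.60), platelet markers for 4 of 4 (−0.57) and neutrophil and myeloid precursor markers for 9 of 9 (−0.27). None of these 3 lists had a gene past limma's adjusted threshold, and 1, 0 and 0 genes had an unadjusted p under 0.05. The part of these cells in the result was not tested.

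The added loss of RIPK3 was addressed by the RIPK3 triple against the double knockout. All 10 genes had lower means in the RIPK3 triple knockout, with differences from −0.86 to −0.11 and a median of −0.41, beside −0.0018 over all genes. None of the 10 passed limma's adjusted threshold, where 0.264% of all probe sets did, and 5 had an unadjusted p under 0.05: Ier3, Myc, Btg2, Zfp36 and Klf6. The share of all probe sets at that unadjusted level is not given, so this count has no background beside it. Ier3 differed by −0.86 (SE 0.20, 95% interval −1.29 to −0.43, limma adjusted p = 0.118), Dusp1 by −0.59 (0.530), Myc by −0.58 (0.283), Btg2 by −0.52 (0.261) and Zfp36 by −0.45 (0.282). Dusp1 and Zfp36 were the 2 genes whose groups lay apart, both downward, where 3.62% of all genes lay apart downward. For Dusp1 the gap was narrow, with the highest RIPK3 triple knockout array at 8.940 and the lowest double knockout array at 8.948. Gadd45b differed by −0.38 (0.657), Egr1 by −0.33 (0.776), Klf6 by −0.29 (0.412), Ier2 by −0.14 and Klf4 by −0.11. The sign of Klf4 turned without RIPK3 triple knockout replicate 1 (0.12) and that of Ier2 without replicate 2 (0.01). Ier3 passed without double knockout replicate 3 (limma adjusted p = 0.0437). Neutrophil and myeloid precursor markers were lower over this contrast too, 9 of 9 in sign, 0 of 9 past limma's adjusted threshold and 6 at an unadjusted p under 0.05. Their array means were 8.23 to 9.47 in the double and 6.88 to 8.80 in the RIPK3 triple knockout. Erythroid markers were lower for 3 of 4 genes (median −0.61, 0 past limma's adjusted threshold and 0 at an unadjusted p under 0.05), cholangiocyte and progenitor markers for 5 of 7 (−0.11, 1 past) and T, NK and B cell markers for 5 of 6 (−0.34, 1 past), and the part of all of these was not tested.

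The added loss of IKKβ was addressed by the IKKβ triple against the double knockout. Here 4 genes had higher and 6 lower means, with a median of −0.05. That median rested on single arrays, from −0.09 without double knockout replicate 3 to 0.03 without IKKβ triple knockout replicate 1, where 5 genes were higher and 5 lower. None of the 10 passed limma's adjusted threshold, where 0.627% of all probe sets did, and 3 had an unadjusted p under 0.05: Gadd45b, Egr1 and Zfp36. The share of all probe sets at that unadjusted level is not given for this comparison either. Gadd45b was 1.02 higher (SE 0.27, 95% interval 0.45 to 1.60, limma adjusted p = 0.130) and was the 1 gene whose groups lay apart, where 7.48% of all genes did. Dusp1 was 0.49 higher (0.692) and Zfp36 0.42 higher (0.287), while Egr1 differed by −0.84 (0.410). For the 2 genes that rose in the double knockout the difference was small, −0.04 for Myc (95% interval −0.43 to 0.35) and −0.07 for Klf6 (−0.32 to 0.17), and these intervals do not show that the levels were equal. Cholangiocyte and progenitor markers were lower for 6 of 7 genes (median −0.58, 3 past limma's adjusted threshold), with array means of 4.64 to 5.24 in the IKKβ triple knockout. Stellate cell markers were lower for 7 of 8 genes (−0.29), platelet markers higher for 4 of 4 (0.72) and erythroid markers higher for 4 of 4 (0.54). In these 3 lists 0 genes passed limma's adjusted threshold and 3, 1 and 0 had an unadjusted p under 0.05, and the part of all of these cells was not tested.

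Both triple knockouts were also set against WT, which served as the same control group in these comparisons and in that of the double knockout. In the RIPK3 triple knockout Gadd45b was lower by −1.18 (SE 0.27, 95% interval −1.75 to −0.60, limma adjusted p = 0.0334), a 2.26-fold lower signal. It was 1 of 10 genes called, against 2.38% of all probe sets in either direction and 0.894% downward. With 1 probe set per gene, 465 of 18820 genes were called higher and 307 lower. Zfp36 differed by −0.46 (0.123) and Klf4 by −0.50 (0.282), and Egr1 was 0.95 higher (0.183). Gadd45b and Zfp36 were the 2 genes whose groups lay apart, both downward, where 4.04% of all genes lay apart downward. Dusp1 at −0.41, Ier3 at −0.35, Klf6 and Myc at 0.20 each, Btg2 at 0.04 and Ier2 at −0.01 did not pass either, and the sign of Ier2 turned under a further quantile normalisation and under median centring. The Gadd45b call was lost without RIPK3 triple knockout replicates 1, 2 or 3 or WT replicates 2 or 4, with adjusted p up to 0.110. Without WT replicate 1 Egr1 passed (0.0407), and without RIPK3 triple knockout replicate 4 Klf4 passed (0.0414), by limma in each case, which made 2 calls. Neutrophil and myeloid precursor markers were lower here as well, 9 of 9 in sign, 0 of 9 past limma's adjusted threshold and 9 at an unadjusted p under 0.05, with WT array means of 8.61 to 10.02. Cholangiocyte and progenitor markers were higher for 7 of 7 genes (median 0.50, 2 past), with array means of 5.27 to 5.43 in the RIPK3 triple knockout. Erythroid markers were lower for 4 of 4 genes (−1.17) and platelet markers for 4 of 4 (−0.58), with 0 past limma's adjusted threshold and 1 and 0 at an unadjusted p under 0.05. Of 6 T, NK and B cell markers 3 were higher and 3 lower (median −0.10), and 1 of the lower ones passed. The part of all of these cells was not tested. Gadd45b did not pass a test against a minimum log2 fold of 0.5.

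In the IKKβ triple knockout against WT, 9 of 10 genes had higher means, with a median of 0.42, and only Klf4 was lower, by −0.24. None of the 10 passed limma's adjusted threshold, and 5 had an unadjusted p under 0.05: Myc, Klf6, Dusp1, Zfp36 and Btg2. A share of all probe sets at that unadjusted level is not given. Over all probe sets this comparison called 7, or 0.0197%. Myc was 0.73 higher (95% interval 0.34 to 1.12, limma adjusted p = 0.383), Dusp1 0.68 (0.770), Btg2 0.49 (0.647), Klf6 0.42 (0.513) and Zfp36 0.41 (0.677). Myc and Klf6 lay apart from WT upward and Klf4 downward, where 3.92% of all genes lay apart in either direction. Egr1 was 0.44 higher, Ier3 0.33, Gadd45b 0.23 and Ier2 0.04.

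The triple knockouts differed from each other in Zfp36 and Gadd45b. Zfp36 was 1.82-fold higher in the IKKβ than in the RIPK3 triple knockout, a log2 difference of 0.87 (SE 0.14, 95% interval 0.57 to 1.17, limma adjusted p = 0.00679). Gadd45b was 2.65-fold higher, a difference of 1.41 (SE 0.27, 95% interval 0.83 to 1.98, limma adjusted p = 0.0181). These were 2 of 10 genes, both upward, against 0.503% of all probe sets called higher and 1.59% in either direction. With 1 probe set per gene, 236 of 18820 genes were called higher and 377 lower. Dusp1 was 1.08 higher with no overlap (limma adjusted p = 0.0896), Ier3 0.68 (0.120), Myc 0.54 (0.172) and Btg2 0.45 (0.182), and Egr1 alone was lower, by −0.51 (0.517). Klf4 at 0.26, Klf6 at 0.22 and Ier2 at 0.05 did not pass. Groups lay apart for 3 genes, Zfp36, Gadd45b and Dusp1, all upward, against 3.68% of all genes upward. The Zfp36 call held without each of the 8 arrays in turn, with adjusted p from 0.00571 to 0.0249. The Gadd45b call was lost without RIPK3 triple knockout replicate 2 (limma adjusted p = 0.0535) or IKKβ triple knockout replicate 2 (0.0577). Neutrophil and myeloid precursor markers were 9 of 9 higher in sign, 0 of 9 past limma's adjusted threshold and 7 at an unadjusted p under 0.05. Their array means were 8.49 to 9.45 in the IKKβ triple knockout, above the RIPK3 triple knockout range already given except at replicate 4 of the latter. Erythroid markers were higher for 4 of 4 genes (median 1.15) and platelet markers for 4 of 4 (0.76), while stellate cell markers were lower for 8 of 8 (−0.20). In these 3 lists 0 genes passed limma's adjusted threshold, and 0, 2 and 4 had an unadjusted p under 0.05. Cholangiocyte and progenitor markers were lower for 7 of 7 genes (−0.28, 1 past), and the part of all of these cells was not tested. Neither Zfp36 nor Gadd45b passed a test against a minimum log2 fold of 0.5.

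**Figure D2:**
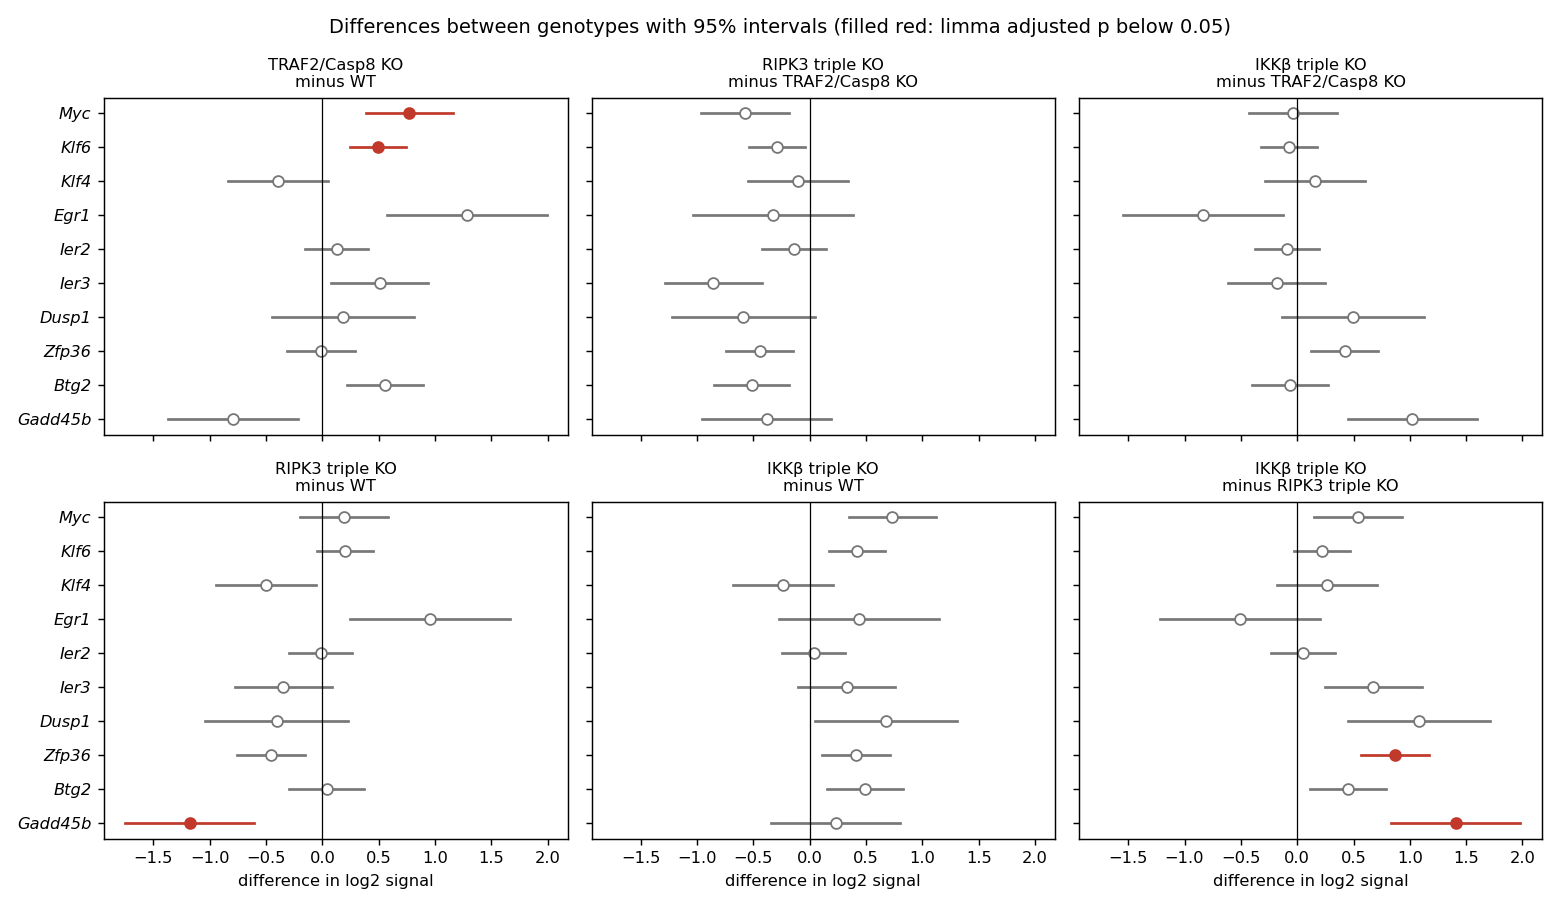
Difference in log2 signal (x axis) of each of the 10 genes (y axis) in the 6 comparisons (panels), with 95% intervals from limma. Filled red points mark adjusted p below 0.05, which are Myc and Klf6 in the double knockout against WT, Gadd45b in the RIPK3 triple knockout against WT, and Zfp36 and Gadd45b in the IKKβ against the RIPK3 triple knockout.

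Ordered by mean, the double knockout was highest for 6 genes (Myc, Klf6, Egr1, Ier2, Ier3 and Btg2), the IKKβ triple knockout for 3 (Dusp1, Zfp36 and Gadd45b) and WT for Klf4. The RIPK3 triple knockout was lowest for 6 genes (Klf4, Ier2, Ier3, Dusp1, Zfp36 and Gadd45b), and WT for the other 4. Between genotypes next to each other in these orders, no difference passed the adjusted threshold of limma for any gene. The highest and lowest genotypes differed past it for Myc, Klf6, Zfp36 and Gadd45b only. For Egr1 (limma adjusted p = 0.0619), Btg2 (0.0886), Dusp1 (0.0896), Ier3 (0.118), Klf4 (0.282) and Ier2 (0.756) the ends did not pass either. No pair of genotypes passed for these genes, so their orders are descriptions. A test of any difference among the 4 genotypes (limma F test) called 3 of 10 genes, against 2.83% of all probe sets. These were Zfp36 (adjusted p = 0.0163), Gadd45b (0.0189) and Myc (0.0479), for which 74.8%, 71.8% and 66.4% of the variance lay between genotypes, where the median gene had 25.3%. Without WT replicate 1 the same test called 6 genes, and without RIPK3 triple knockout replicate 2 it called 1. With 1 probe set per gene it called 6 of the 10 genes, and 1092 of all 18820 genes. Ier2 had 9.86% of its variance between genotypes (adjusted p = 0.884). Pooled SDs within genotypes were 0.52 for Egr1, 0.46 for Dusp1 and 0.41 for Gadd45b, at or above percentile 97.4 of all genes, 0.28 for Myc at percentile 89.0, and 0.16 for Klf6 at percentile 48.1.

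Single livers moved many of these genes at once. In RIPK3 triple knockout replicate 4 all 10 genes lay above the mean of their genotype and 6 were the highest of the group, with a mean deviation of 0.26, while replicate 2 of that genotype had 1 gene above and a mean deviation of −0.25. Double knockout replicate 3 was the lowest of its group for 8 genes, with a mean deviation of −0.21, and its Egr1 was the highest at 7.92. WT replicate 1 was the highest of its group for 6 genes and the lowest for Dusp1 and Ier2. The same RIPK3 triple knockout array, replicate 4, had mean neutrophil and myeloid precursor signals of 8.80, beside 6.88, 7.49 and 7.73 in the other replicates, and a mean erythroid signal of 8.49, beside 6.09 to 6.67. WT replicate 1 had the highest neutrophil and myeloid precursor signal of all arrays, 10.02. That array was also the highest of all in Kupffer cell and macrophage signal, 9.87, beside 8.96 to 9.02 in the other WT arrays. Its T, NK and B cell signal, 6.10, was the highest of all arrays too. In RIPK3 triple knockout replicate 4 the Kupffer cell and macrophage signal was 9.71, beside 9.16 to 9.25 in the other replicates of that genotype. Over the 4 genotypes the mean erythroid signal of single arrays ran from 7.72 to 8.73 in WT, 6.69 to 8.39 in the double, 6.09 to 8.49 in the RIPK3 triple and 6.91 to 8.79 in the IKKβ triple knockout, over 4 of 8 listed markers. The mean platelet signal ran from 7.08 to 7.73, 6.19 to 7.19, 6.19 to 8.17 and 7.10 to 7.97 in the same order, and the stellate cell signal from 8.56 to 8.92, 8.82 to 8.96, 8.86 to 8.94 and 8.52 to 8.80. The part of these cells in the deviations was not tested.

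**Figure D3:**
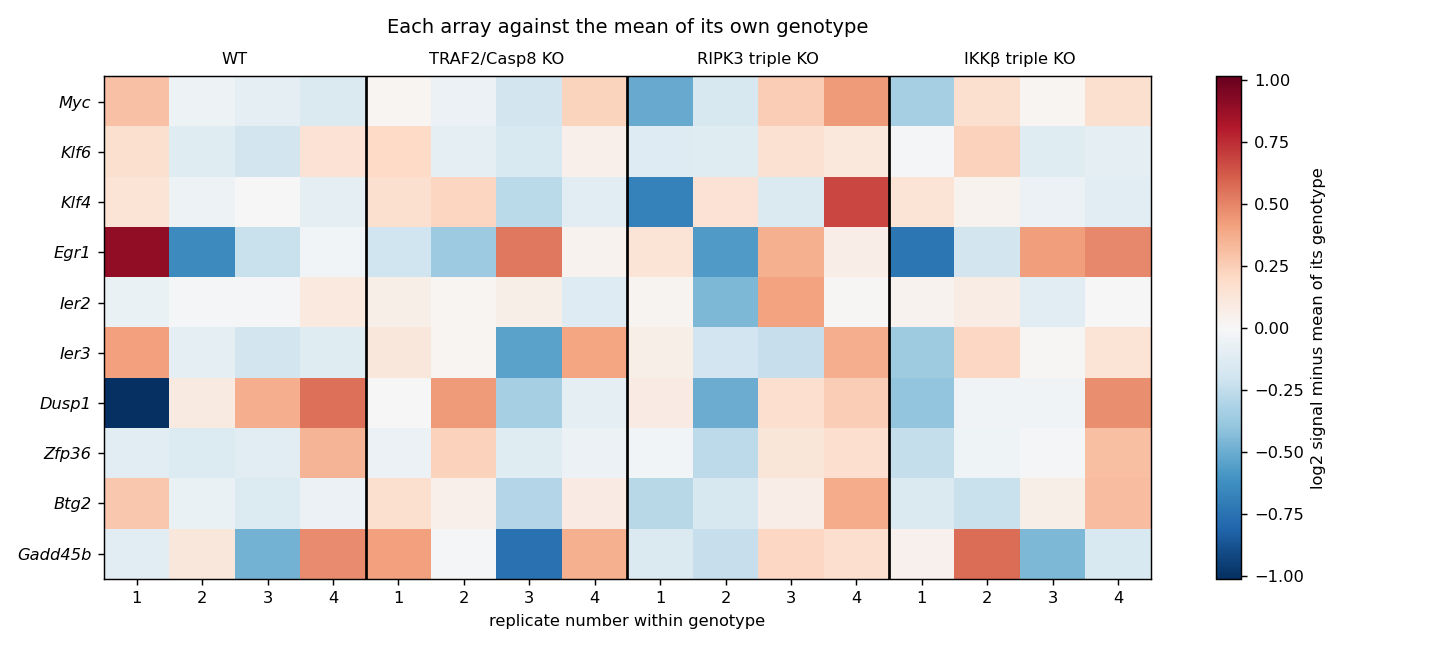
Log2 signal of each gene (y axis) on each array (x axis, replicate numbers within 4 genotypes) minus the mean of that array's own genotype, with red above and blue below the mean. The column of RIPK3 triple knockout replicate 4 is above the mean in all 10 genes, and WT replicate 1 is high in Egr1 and low in Dusp1.

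The array names hold a letter and a number that read like a plate position. WT and IKKβ triple knockout arrays had the number 5, and double and RIPK3 triple knockout arrays the number 7. All 3 comparisons in which any of the 10 genes passed set arrays with the number 5 against arrays with the number 7, so in them genotype and number cannot be told apart. Neither of the 2 comparisons within a number, the IKKβ triple knockout against WT and the RIPK3 triple against the double knockout, called any of the 10 genes. WT and RIPK3 triple knockout arrays had the letters A to D and the other arrays E to H, so in those 2 comparisons genotype and letters cannot be told apart. The same holds for the double knockout against WT and for the IKKβ against the RIPK3 triple knockout, which differ in number and letters alike. The RIPK3 triple knockout against WT differs in number only. Double knockout replicate 4 alone had another prefix in its array name. Gadd45b had its higher means in the genotypes with the number 5. Within a number it differed by 0.23 (IKKβ triple knockout against WT) and by −0.38 (RIPK3 triple against double knockout).

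Related early-response genes were taken from lists grouped by role. Of 20 other immediate early transcription factor genes measured, 1 rose in the double knockout against WT, Maff, a small Maf factor, by 1.03 with overlapping groups (limma adjusted p = 0.0065), and the list's median was 0.17. Maff was also 0.78 higher in the RIPK3 triple knockout than in WT (0.0399). Csrnp1, a nuclear factor first described as axin-induced, fell by 0.77 in the RIPK3 triple knockout against WT (0.0140) and was 0.73 higher in the IKKβ than in the RIPK3 triple knockout (0.0276). The AP-1 genes Jun and Fos, picked after their values were seen, differed by 1.19 (limma adjusted p = 0.0846) and 0.71 (0.452) in the double knockout against WT and did not pass. In the RIPK3 triple against the double knockout 17 of 20 had lower means with a median of −0.21, none passed limma's adjusted threshold and 6 had an unadjusted p under 0.05, and Jun at −0.97 was the furthest from 0.

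Of 15 other Krüppel-like factor genes, none passed limma's adjusted threshold in any of the 6 comparisons, and 11 of 90 tests had an unadjusted p under 0.05. In the double knockout against WT 14 of 15 had lower means, with a median of −0.10 and a range from −0.74 to 0.06, on the other side of 0 from Klf6. Klf9, picked after its values were seen, was the one at −0.74 (limma adjusted p = 0.129), and Klf10 was 0.85 higher in the IKKβ than in the RIPK3 triple knockout (0.136). Of 11 genes of the Myc network, the Myc relatives, Max, its other partners and the parallel Mlx branch, none passed in any comparison, with medians between −0.11 and −0.03 and 8 of 66 tests at an unadjusted p under 0.05. Of 22 Myc-responsive growth genes, such as nucleolar and ribosome assembly genes, none passed in any comparison either, and 27 of 132 tests had an unadjusted p under 0.05, 11 of them in the IKKβ against the RIPK3 triple knockout. Their median was 0.0066 in the double knockout against WT, where Myc rose, with differences from −0.39 to 0.33. In the IKKβ triple against the double knockout 21 of these 22 had higher means, with a median of 0.12, and in the IKKβ against the RIPK3 triple knockout 19 of 22 did, with a median of 0.22.

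Of 22 other early-induced feedback genes, 4 rose and 0 fell in the double knockout against WT, with a median of 0.24. The ubiquitin-editing NF-κB brake Tnfaip3 rose by 1.76 (limma adjusted p = 0.000365), the pseudokinase gene Trib1 by 0.61 (0.0147), the salt-inducible kinase gene Sik1 by 0.59 (0.0284) and the NF-κB inhibitor gene Nfkbia, named to complete the count, by 1.16 (0.0457). Tnfaip3 was 2.00 higher in the RIPK3 triple knockout than in WT (0.000109). Gadd45a, a relative of Gadd45b that belongs to the same stress sensors, differed in the same 2 comparisons as Gadd45b did, by −0.94 in the RIPK3 triple knockout against WT (0.0285) and by 1.06 in the IKKβ against the RIPK3 triple knockout (0.0220). Dusp5, a phosphatase of nuclear ERK, was lower by −0.57 in the RIPK3 triple than in the double knockout (0.0486), where Dusp1 did not pass, and 0.68 higher in the IKKβ than in the RIPK3 triple knockout (0.00724). Of 13 early-induced effectors, the matricellular protein genes Ccn1 and Ccn2 rose by 1.13 (0.0085) and 0.80 (0.0392) in the double knockout against WT, and the survival kinase gene Pim1 was lower there by −0.84 (0.0215) and in the RIPK3 triple knockout against WT by −0.80 (0.0301). All p-values in these lists are limma's, adjusted over all probe sets.

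These calls differed in how much they rested on single arrays. Tnfaip3 in both comparisons, and Ccn1 and Maff in the double knockout against WT, kept adjusted p below the threshold without each of 8 arrays in turn, as did Dusp5 in the IKKβ against the RIPK3 triple knockout. Trib1 lost its call without WT replicate 2 or double knockout replicate 3, and Csrnp1 against WT without WT replicate 2. In the double knockout against WT the calls of Ccn2 (without 7 of 8 arrays, adjusted p up to 0.124), Nfkbia (6 of 8, up to 0.139), Sik1 (5 of 8, up to 0.0980) and Pim1 (4 of 8, up to 0.0732) were lost more often. In the RIPK3 triple knockout against WT those of Pim1 (7 of 8, up to 0.0836), Gadd45a (6 of 8, up to 0.0928) and Maff (6 of 8, up to 0.122) were, as was that of Dusp5 against the double knockout (7 of 8, up to 0.155). In the IKKβ against the RIPK3 triple knockout Gadd45a lost its call without 4 of 8 arrays (up to 0.0745) and Csrnp1 without 3 of 8 (up to 0.0901).

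**Figure D4:**
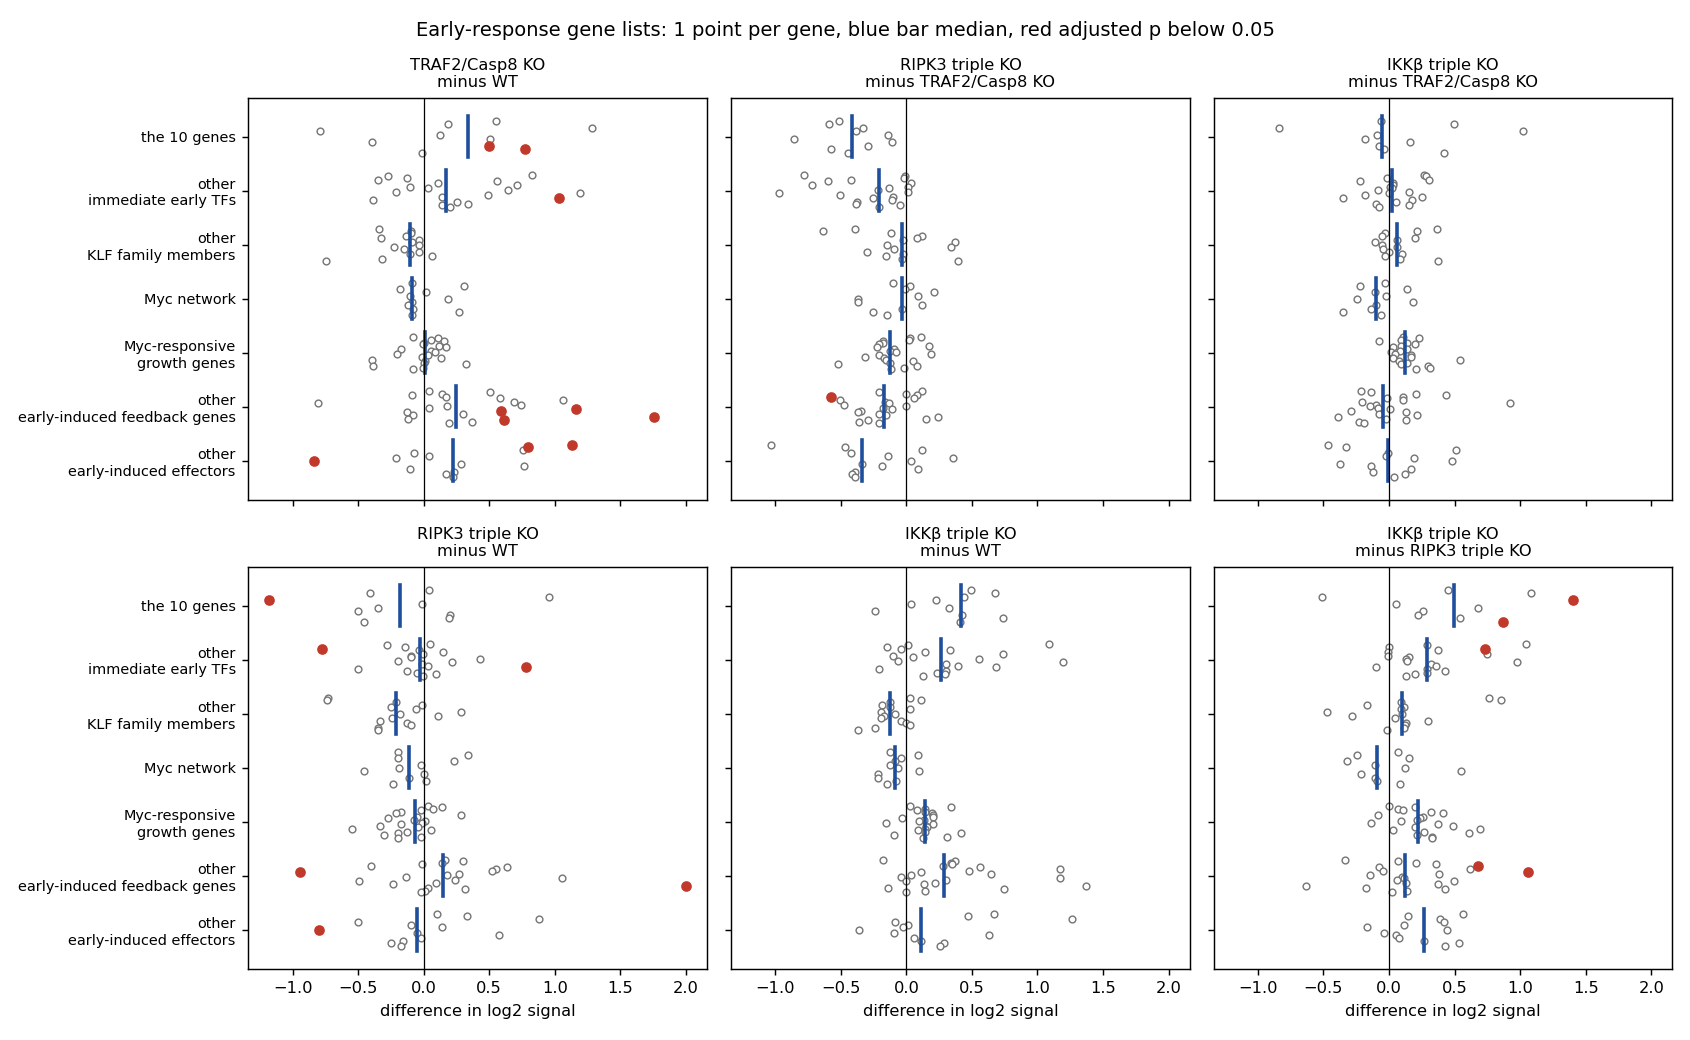
Difference in log2 signal (x axis) of the 10 genes and of 6 lists of related genes (y axis) in the 6 comparisons (panels), with 1 point per gene, a blue bar at the median and red points for adjusted p below 0.05. In the RIPK3 triple against the double knockout the 10 genes all lie below 0, and no gene of the Krüppel-like, Myc network or Myc-responsive lists is red in any panel.

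The genes whose signals followed each member most closely were listed by Pearson r over the 16 arrays, among 9402 genes brighter than the median gene. These values are descriptions, with no test, over arrays grouped by genotype and by the numbers and letters in their names. Myc was most like Myh9 (r = 0.861), Septin6 (0.843) and Tagln2 (0.837), and Btg2 was also nearest to Myh9 (0.824), before Gadd45g (0.816) and 1810037I17Rik (0.815). Klf6 was nearest to 9130401M01Rik (0.874), Parp3 (0.831) and Eif6 (0.828), and Klf4 to Rbm42 (0.899), Gabarapl2 (0.889) and Snord35a (0.850). Egr1 was nearest to Nfe2l2 (0.945), C5ar2 (0.895) and Flrt2 (0.869), and Ier3 to S100a11 (0.907), Lgals1 (0.884) and Mafk (0.831). Dusp1 was nearest to Slc25a25 (0.900), Erdr1 (0.870) and Sgk1 (0.860). Zfp36 was nearest to Mcm7 (0.925), Cdt1 (0.895) and Oasl1 (0.883), and Gadd45b to Tor3a (0.912), Slc25a30 (0.901) and Yif1a (0.896). Ier2, which hardly differed between genotypes, had no gene above r = 0.637, the value of Foxp2.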

How the data were processed

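The deposited table held 1 log2 signal per probe set and array for 35556 probe sets on 16 arrays, which the authors summarised with RMA, per the submitters' processing notes, so array background and overall level were already adjusted and no detection call was kept. Of these probe sets 21218 carry 1 gene symbol in the platform annotation, 1881 several and 12457 none. Where a gene had several probe sets, the brightest over all arrays was taken. A single linear model of the 4 genotypes, with 12 residual degrees of freedom, gave 6 two-sided comparisons and an F test. It was fitted by limma (version 3.58.1, R version 4.3.3), whose empirical Bayes step was used with no intensity trend. Benjamini-Hochberg adjustment ran over all probe sets with a threshold of 0.05. Tests were checked on simulated data. Array number limits the precision.

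The 10 genes and all lists were chosen with earlier results of these data known. Named are the 10 genes, the deleted genes, up to 3 genes of each list past the threshold in each comparison by smallest adjusted p, and the 3 genes most like each of the 10 by Pearson r among genes brighter than the median gene. Genes of the lists without a probe set of their own, among them Fosl1, Btg3 and Areg, were not analysed here. Alternatives covered the variance prior, the arrays in the model, a filter on dim probe sets, scaling, centring, 1 probe set per gene, array weights, blocks, a minimum fold and leaving out each array. Promoter windows came from RefSeq, GRCm38.p6. Promoter searches ran in Python 3.11.15, and matplotlib 3.10.9 made the figures.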

Additional observations from a re-analysis of the deposited data

Results flagged for a closer look

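In 2 of 40 groups, each 1 gene in the 4 arrays of 1 genotype, a single array lay further from the others than Dixon's 95% critical value for the ratio of gap to range, a rate that chance gives in about 1 of 20 groups. Ier3 in WT replicate 1 was at 5.70 with the next array at 5.19, a ratio of 0.857. Zfp36 in WT replicate 4 was at 7.52 with the next array at 7.07, a ratio of 0.933.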

How the results depend on the processing

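Among single-gene differences under alternatives that kept all arrays of a comparison, 578 kept their direction and their side of the threshold, 11 passed it only there, 8 passed it only in the reported fit and 3 changed sign. In the double knockout against WT the number of the 10 genes called went from 2 to 1 (Myc) with only the arrays of both groups in the model, to 4 (with Egr1 and Btg2) with 1 probe set per gene and with array weights, and to 0 with a minimum log2 fold of 0.5. The minimum fold also gave 0 in the RIPK3 triple knockout against WT and 0 in the IKKβ against the RIPK3 triple knockout, where array weights gave 4 (with Ier3 and Dusp1). In the RIPK3 triple against the double knockout 1 probe set per gene and array weights each called 1 gene, Ier3, and in the IKKβ triple against the double knockout 1 probe set per gene called 1, Gadd45b. The F test called 6 genes with 1 probe set per gene and 7 with array weights. Dusp1 in the double knockout against WT turned to −0.0326 with array weights, and Ier2 in the RIPK3 triple knockout against WT to 0.0138 with quantile normalisation and 0.0183 with median centring. The cause of these changes was not tested, beyond the smaller number of tests with 1 probe set per gene. Centring moved the split of all probe sets called higher and lower in the RIPK3 triple against the double knockout from 47 and 47 to 77 and 45, and in the RIPK3 triple knockout against WT from 527 and 318 to 668 and 264.

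With the replicate number as a block, the double knockout against WT called 0 of the 10 genes (Myc adjusted p = 0.0603, Klf6 adjusted p = 0.0691, limma), and the F test called 2. Same-numbered arrays had deviations that correlated at −0.23 to 0.36 and over 0.1 in 6 of 24 pairs. The array of the same number was the closest one in 6 of 24 cases. These values show no steady likeness between same-numbered arrays, and they cannot decide whether the animals were paired.

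Leaving out 1 array at a time gave 0 to 3 calls in the double knockout against WT, 0 to 1 in the RIPK3 triple against the double knockout, 0 to 2 in the RIPK3 triple knockout against WT, 1 to 2 in the IKKβ against the RIPK3 triple knockout, 0 to 0 in both other comparisons, and 1 to 6 in the F test. Differences near 0 changed sign: Dusp1 in the double knockout against WT (−0.155 to 0.367) and Zfp36 there (−0.0883 to 0.106), Klf4 (−0.333 to 0.122) and Ier2 (−0.278 to 0.0105) in the RIPK3 triple against the double knockout, Myc (−0.101 to 0.0738) and Btg2 (−0.169 to 0.0106) in the IKKβ triple against the double knockout, Ier2 (−0.152 to 0.136) and Btg2 (−0.0869 to 0.132) in the RIPK3 triple knockout against WT, and Ier2 (−0.101 to 0.187) in the IKKβ against the RIPK3 triple knockout. The mean over several probe sets was not run because each of the 10 genes has 1.

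Over all probe sets the counts called were 800 in the double knockout against WT, 94 and 223 in the RIPK3 and IKKβ triple against the double knockout, 845 and 7 in the RIPK3 and IKKβ triple knockouts against WT, 567 between the triple knockouts and 1008 by the F test. In the same order, the comparisons gave 458, 40, 109, 328, 1 and 232 with only their own arrays in the model, and 74, 14, 20, 65, 2 and 29 with the minimum fold. Array weights gave 1594 in the first, 509 in the third, 20 in the fifth, 875 in the sixth and 1651 by the F test. With 1 probe set per gene the third gave 340 and the fifth 28, without the dimmest probe sets the fifth gave 13, and with the replicate block the second gave 62. Leaving out 1 array gave 420 to 902, 39 to 89, 115 to 312, 425 to 1095, 4 to 13, 197 to 938 and, by the F test, 666 to 1196.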
